A study of Mus musculus with 6 samples.

Results

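The 9 aquaporin genes Aqp1, Aqp2, Aqp3, Aqp4, Aqp5, Aqp7, Aqp8, Aqp9 and Aqp11 were followed by their symbols through a table of 78298 mouse genes. The table came from RENCA cells, an established mouse renal adenocarcinoma line. Of the 6 samples, 3 were labelled oe-AQP1 and 3 oe-NC. The oe-AQP1 cells carried a lentivirus with the coding sequence of mouse Aqp1 behind the ubiquitin C promoter, and the oe-NC cells carried the same vector without an insert. All 6 were selected with puromycin at 2 µg/mL for 14 days, all carry the label Batch 1, and RNA was taken about 2 weeks after transduction. Cells without a vector were not part of the design. Both groups therefore share transduction and selection, and the comparison asks which other aquaporins are present in these cells and whether they shift when Aqp1 is delivered. The samples are named as biological replicates, but whether each came from its own transduction is not given in the sources used here, so p-values measure the spread between these samples. The expected counts, which estimate the number of reads per gene, summed to between 18385714 and 21920899 per library.

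Aquaporins are membrane proteins that form pores for water and, in some members, for other small uncharged molecules. Aqp1, Aqp2, Aqp4 and Aqp5 are classical water channels. Aqp3, Aqp7 and Aqp9 are aquaglyceroporins, which also pass glycerol. Aqp8 passes water and hydrogen peroxide, and Aqp11 is a distant member found on intracellular membranes. In the kidney Aqp1 serves bulk water reabsorption in the early nephron, and Aqp2 is the vasopressin-regulated channel of the collecting duct.

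The coding sequences show how closely the members resemble the delivered gene, which bears on whether reads of Aqp1 could be counted for a relative. The aquaporin pore is lined by a repeated Asn-Pro-Ala signature, and its codons are in capitals in the following windows, read 5′ to 3′ from the coding exons of the canonical transcripts of GENCODE M39 (genome build GRCm39). They are shown for Aqp1 and for the 3 other members with enough reads for a test.
Aqp1 first signature: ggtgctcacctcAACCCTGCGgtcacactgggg
Aqp1 second signature: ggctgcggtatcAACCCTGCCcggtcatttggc
Aqp2 first signature: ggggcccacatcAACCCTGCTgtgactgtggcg
Aqp2 second signature: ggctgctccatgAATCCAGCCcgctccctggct
Aqp5 first signature: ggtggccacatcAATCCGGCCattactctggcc
Aqp5 second signature: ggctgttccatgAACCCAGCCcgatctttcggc
Aqp9 first signature: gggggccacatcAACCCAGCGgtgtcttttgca
Aqp9 second signature: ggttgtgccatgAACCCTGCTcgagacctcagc
The windows spell the same 3 residues with different codons around and within the capitals. Identical aligned bases, as a share of the longer coding sequence, were 61.0% between Aqp1 and Aqp2, 59.1% between Aqp1 and Aqp5 and 52.9% between Aqp1 and Aqp9. The longest run shared letter for letter with the coding sequence of Aqp1 was 13 bases in Aqp2, 13 in Aqp5 and 12 in Aqp9.

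Of the 9 members, 8 had at least 1 count in some sample and 5 had a count in all 6. Aqp1, Aqp2, Aqp5 and Aqp9 passed the low-count filter and were tested, and the other 5 did not pass it. The plot of counts per sample shows these tiers. Aqp1 was the member with the highest count in every oe-AQP1 sample, whereas Aqp9 held that place in every oe-NC sample.

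**Figure D1:**
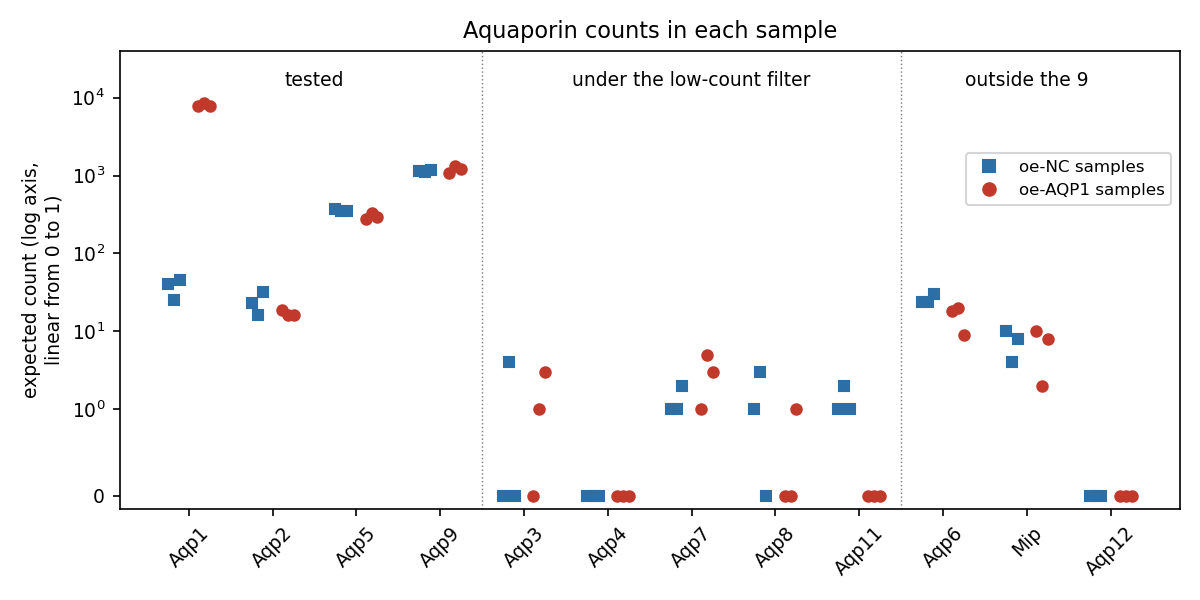
Expected counts of the 9 aquaporins and of 3 further family members (Aqp6, Mip, Aqp12) in each sample, on a log axis that is linear from 0 to 1, with squares for oe-NC and circles for oe-AQP1. The Aqp1 points of the groups lie far apart, at 25 to 45 and 7713 to 8545 counts, those of Aqp9 overlap, and those of Aqp5 separate by a small step.

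Aqp1 (ENSMUSG00000004655, chr6:55313068-55325540, plus strand) is the gene that was delivered, and its counts check the sample labels. It had 41, 25 and 45 counts in oe-NC samples 1 to 3, and the oe-AQP1 samples had 7713, 8545 and 7838. All oe-AQP1 samples lay far above all oe-NC samples, as their labels state. In counts per 1000000 scaled counts of the library (CPM, defined below), the level was 387 ± 4.75 (SD, n = 3) against 1.86 ± 0.423 (SD, n = 3). The log2 fold change was 7.70 (SE 0.16, 95% confidence interval 7.35 to 8.04; limma-voom, adjusted p = 1.34e-10), a 207-fold increase with an interval of 163 to 264. Among the 15522 genes tested, Aqp1 ranked 1 by log2 fold change. An exact two-sided permutation test of the CPM gave p = 0.1, which is the smallest value that 3 against 3 samples allow. The change was between 7.50 and 7.80 on the log2 scale when any 1 sample was left out.

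In oe-NC cells, which received no insert, Aqp1 had at least 25 counts in every sample. These counts lay above the limit of 3 counts that an observed count of 0 allows. That limit covers counting error only, and the source of these reads was not tested. The virus brought only the coding sequence, which is 810 bases long with its stop codon, whereas the exons of the native gene span 2976 bases. Per kilobase of coding sequence, Aqp1 in oe-AQP1 cells stood at 472 to 483 CPM, against 1.69 to 2.62 CPM in oe-NC cells. The table counts reads per gene, so transcripts of the delivered sequence and of the native locus cannot be told apart.

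Of the 3 nearest protein-coding genes on each side of Aqp1, 2 were counted and tested. Crhr2, Ghrhr, Adcyap1r1 and Neurod6 had no counts in any sample. Inmt, an amine methyltransferase gene 161 kb away, had 111 to 152 counts in oe-NC samples against 81 to 106 in oe-AQP1 samples, and fell by 0.56 on the log2 scale (limma-voom adjusted p = 0.00683). Mindy4, a deubiquitinase gene 10.4 kb away, had 90 to 129 counts in oe-NC against 74 to 102 in oe-AQP1, with a log2 fold change of -0.44 (limma-voom adjusted p = 0.0485). That last call was lost without any one of the oe-AQP1 samples and without oe-NC sample 1 or 3, with adjusted p between 0.0729 and 0.178. Over all genes tested, 16.6% fell past the adjusted p threshold of 0.05. Whether transcription of the native Aqp1 locus changed was not tested.

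Among the 3 other members that could be tested, 1 passed the adjusted p threshold of 0.05, and it fell. Over all genes tested, 32.5% passed that threshold, 16.0% higher and 16.6% lower in oe-AQP1. None of the 3 passed both thresholds of the study (adjusted p under 0.05 and a log2 fold change beyond 1 in either direction), which 5.23% of all genes tested did, 4.39% higher and 0.844% lower in oe-AQP1. The single call among 3 members is thus close to the share of all genes called.

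Aqp5 (ENSMUSG00000044217, chr15:99488532-99492710, plus strand) is the water channel of salivary, lacrimal and lung epithelium. It had 273, 335 and 298 counts in oe-AQP1 samples 1 to 3 and 370, 346 and 349 counts in oe-NC samples 1 to 3. Every oe-AQP1 sample lay below every oe-NC sample, a separation in this direction that 23.8% of all genes tested also showed (47.3% separated in either direction). The level was 14.5 ± 0.714 CPM (SD, n = 3) against 18.1 ± 1.45 CPM (SD, n = 3), and the log2 fold change was -0.31 (SE 0.08, 95% confidence interval -0.49 to -0.12; limma-voom, adjusted p = 0.017). This corresponds to a level 19.1% lower in oe-AQP1, with an interval for the change of -28.8% to -8.13%. The exact two-sided permutation test gave p = 0.1, the smallest value possible here. The call was lost without oe-AQP1 sample 1 (limma-voom adjusted p = 0.0728), without oe-AQP1 sample 3 (0.0593) and without oe-NC sample 2 (0.0572), each time with the same sign. In bulk RNA, fewer cells that carry a transcript and less of it per cell cannot be told apart.

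Aqp9 (ENSMUSG00000032204, chr9:71017928-71075964, minus strand) is an aquaglyceroporin best known from liver, where it takes up glycerol. It had 1081, 1308 and 1199 counts in oe-AQP1 samples 1 to 3 and 1135, 1101 and 1176 counts in oe-NC samples 1 to 3. The ranges of the groups overlapped. The level was 57.5 ± 2.51 CPM (SD, n = 3) against 57.7 ± 2.54 CPM (SD, n = 3). The log2 fold change was -0.00373 (95% confidence interval -0.12 to 0.12; limma-voom, adjusted p = 0.966), and the interval of the fold ran from 0.919 to 1.08. Of all genes tested, 1.1% had a smaller absolute log2 fold change, and the median absolute value was 0.18.

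Aqp2 (ENSMUSG00000023013, chr15:99476936-99485016, plus strand), the collecting duct channel, was counted at a low level. It had 19, 16 and 16 counts in oe-AQP1 samples 1 to 3 and 23, 16 and 32 counts in oe-NC samples 1 to 3. The groups overlapped, since oe-NC sample 2 stood at the level of the oe-AQP1 samples. The level was 0.822 ± 0.123 CPM (SD, n = 3) against 1.18 ± 0.313 CPM (SD, n = 3). The log2 fold change was -0.51 (SE 0.28, 95% confidence interval -1.13 to 0.11; limma-voom, adjusted p = 0.19), so a difference was not detectable at this depth and the interval includes both no change and a fall beyond the fold threshold.

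**Figure D2:**
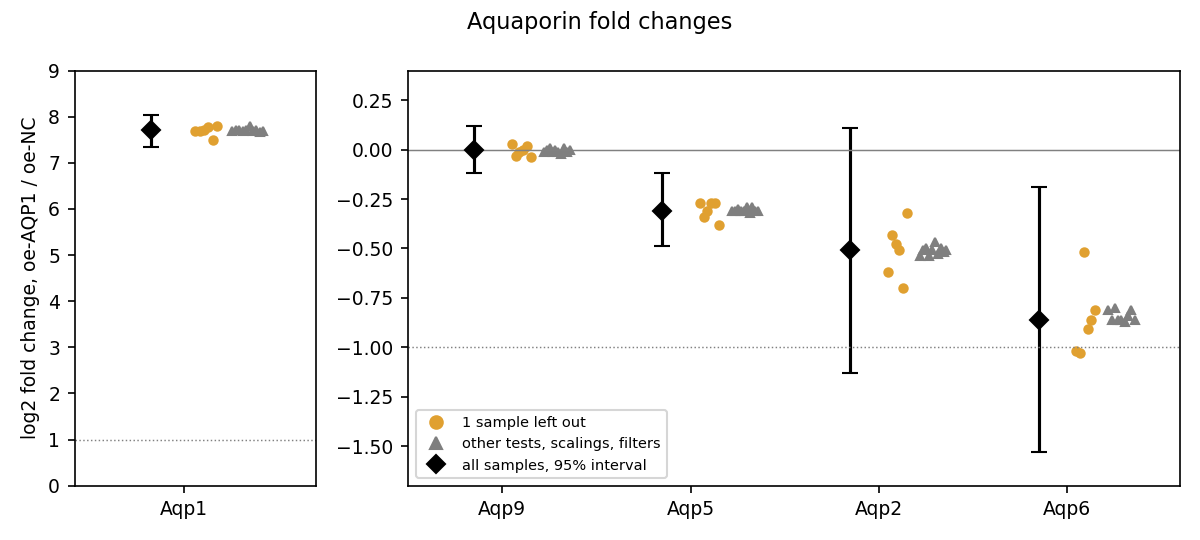
Log2 fold change of oe-AQP1 over oe-NC for Aqp1 (left, own axis) and for Aqp9, Aqp5, Aqp2 and Aqp6 (right). Diamonds with bars are the limma-voom estimate and its 95% confidence interval, circles leave out 1 sample each, triangles use another test, scaling or filter, and dotted lines mark the fold threshold of 1 on the log2 scale. Aqp1 stays between 7.50 and 7.80 with any 1 sample left out, Aqp9 stays near 0 and Aqp5 stays near -0.31.

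The remaining 5 members were near or under the limit of detection. Aqp4, the main water channel of the brain, had no count in any of the 6 samples. A count of 0 allows up to 3 counts, which is 0.136 to 0.164 CPM in these libraries, and such limits cover counting error only. Aqp3, the basolateral glycerol and water channel of the collecting duct, had 0, 1 and 3 counts in oe-AQP1 and 0, 4 and 0 in oe-NC. Aqp7, the glycerol channel of fat cells, had 1, 5 and 3 counts in oe-AQP1 and 1, 1 and 2 in oe-NC. Their groups overlapped. Aqp8, a channel of gut, liver and pancreas, had 0, 0 and 1 counts in oe-AQP1 and 1, 3 and 0 in oe-NC. Aqp11, whose loss in mice leads to cystic kidneys, had 1, 2 and 1 counts in oe-NC and none in any oe-AQP1 sample. The groups of Aqp11 did not overlap. Of the genes tested, which do not include Aqp11, 23.8% separated in this direction. The share among genes with counts this low was not computed. Both groups stood at or under 3 counts per sample, and in a fit without the low-count filter its limma-voom adjusted p was 0.0622. No fold is given for these 5 genes.

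The family has 3 further genes outside the 9 in the table. Aqp6, an intracellular channel of collecting duct intercalated cells that conducts anions, had 18, 20 and 9 counts in oe-AQP1 samples 1 to 3 and 24, 24 and 30 in oe-NC samples 1 to 3. Its groups did not overlap, a separation in this direction that 23.8% of all genes tested also showed. Its log2 fold change of -0.86 (SE 0.30; limma-voom, adjusted p = 0.0528) missed the threshold. Without oe-NC sample 1 its adjusted p was 0.0461 in the same fit. With 9 counts in oe-AQP1 sample 3, Aqp6 was not tested where at least 10 counts were required in every sample. Mip, the lens channel also called Aqp0, had 4 to 10 counts in oe-NC against 2 to 10 in oe-AQP1 and did not pass the filter, and Aqp12, the pancreatic member, had no counts.

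Levels were compared between genes per kilobase of merged exons. In oe-NC cells the order was Aqp9 at 8.70 ± 0.382 CPM per kb, Aqp5 at 6.61 ± 0.533, Aqp1 at 0.624 ± 0.142 and Aqp2 at 0.295 ± 0.0781 (SD, n = 3 each). The ranges of neighbours in this order did not overlap across the 3 samples. Below Aqp2, the ranges of Aqp8, Aqp3, Aqp7 and Aqp11 overlapped from each to the next, so no order is read among them. In oe-AQP1 cells Aqp1 came first at 130 ± 1.60 CPM per kb, followed by Aqp9 at 8.66 ± 0.378, Aqp5 at 5.32 ± 0.262 and Aqp2 at 0.205 ± 0.0306 (SD, n = 3 each). Among the 78168 genes with a length, Aqp1 moved from rank 12406 in oe-NC to rank 239 in oe-AQP1 by this level, and Aqp9 stood at 4676 and 4733. The Aqp1 values divide by the 2976 exon bases of the native gene. In oe-AQP1 they understate the level to the extent that reads come from the shorter delivered sequence, a part that was not measured.

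Taken as 1 pool, the 9 members summed to 144 ± 1.48 CPM per kb in oe-AQP1 and 16.3 ± 0.808 CPM per kb in oe-NC (SD, n = 3 each). Aqp1 made up 90.6%, 89.8% and 89.9% of that sum in oe-AQP1 samples 1 to 3, and 4.21%, 2.71% and 4.60% in oe-NC samples 1 to 3. These shares divide Aqp1 by the 2976 exon bases of the native gene, whereas the delivered sequence has 810 bases. Per kilobase of coding sequence, Aqp1 stood at 472 to 483 CPM in oe-AQP1. The oe-AQP1 shares are too low to the extent that reads come from the insert. By merged exon length, the oe-NC pool was mostly Aqp9, at 52.3% to 53.9%, and Aqp5, at 38.9% to 41.4%, a split that depends on the length used. The 8 members other than Aqp1 summed to 14.7 to 16.5 CPM per kb in oe-NC against 13.5 to 14.8 in oe-AQP1, so these ranges overlapped. With the length of the canonical transcript in place of the merged exons, the mean share of Aqp1 was 81.6% in oe-AQP1 and 1.97% in oe-NC, and the oe-NC order of Aqp9, Aqp5, Aqp1 and Aqp2 was the same, at 21.5, 9.36, 0.624 and 0.295 CPM per kb.

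**Figure D3:**
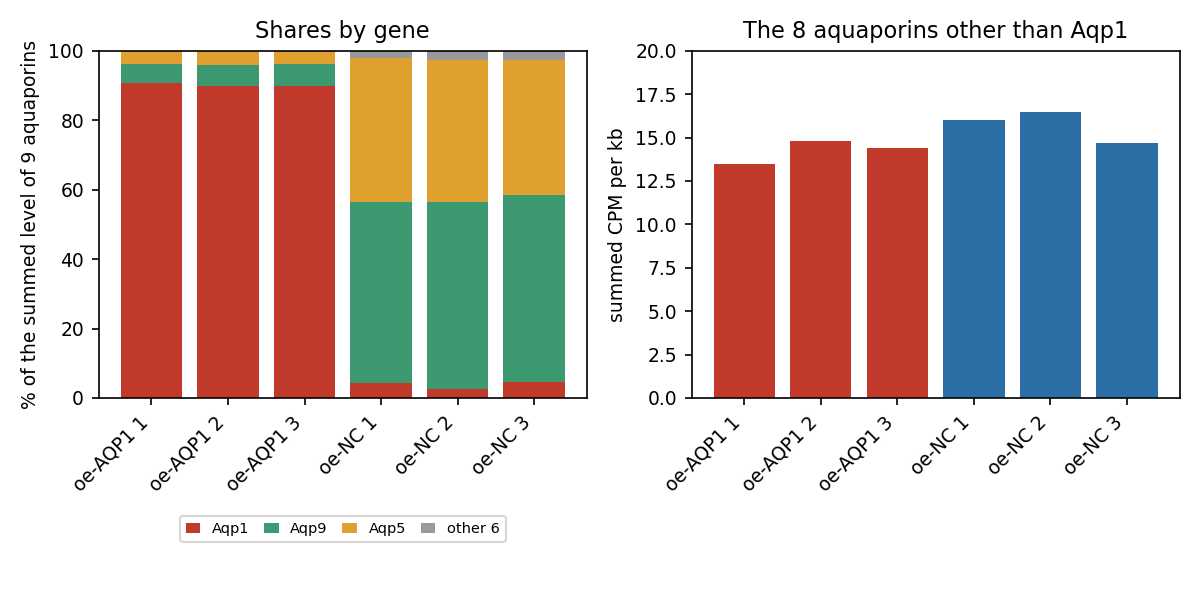
Left, share of Aqp1, Aqp9, Aqp5 and the other 6 members in the summed level of the 9 aquaporins (CPM per kb of merged exons) in each sample. Right, summed level of the 8 aquaporins other than Aqp1, at 14.7 to 16.5 CPM per kb in oe-NC (blue) against 13.5 to 14.8 in oe-AQP1 (red). Aqp1 takes 2.71% to 4.60% of the pool in oe-NC against 89.8% to 90.6% in oe-AQP1, while the ranges of the remainder overlap.

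Aqp2, Aqp5 and Aqp6 lie side by side on chromosome 15, with gaps of 3.52 kb between Aqp2 and Aqp5 and 6.36 kb between Aqp5 and Aqp6. All 3 had a log2 fold change below 0, and only Aqp5 passed the test. The same direction held for the other 6 protein-coding genes taken at this locus, the nearest on each side. Among all 9, the median was -0.30 against 0.00 over all genes tested, and 2 passed the adjusted p threshold, a smaller share than the 32.5% of all genes tested. The second was Racgap1, a cytokinesis gene, which fell by 0.16 on the log2 scale (limma-voom adjusted p = 0.00308).

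A long noncoding RNA, Gm34765, runs antisense across the cluster. It shares 665 exonic bases with Aqp2, 374 with Aqp5 and 384 with Aqp6. It had 115, 159 and 157 counts in oe-AQP1 samples 1 to 3 and 134, 159 and 190 in oe-NC samples 1 to 3. The groups overlapped, and its log2 fold change was -0.24 (limma-voom adjusted p = 0.23), though it was -0.36 without oe-NC sample 1 (limma-voom adjusted p = 0.0271). Whether the reads were counted by strand is not given in the sources used here, so over the shared bases reads of the antisense RNA and of the 3 aquaporins cannot be told apart.

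**Figure D4:**
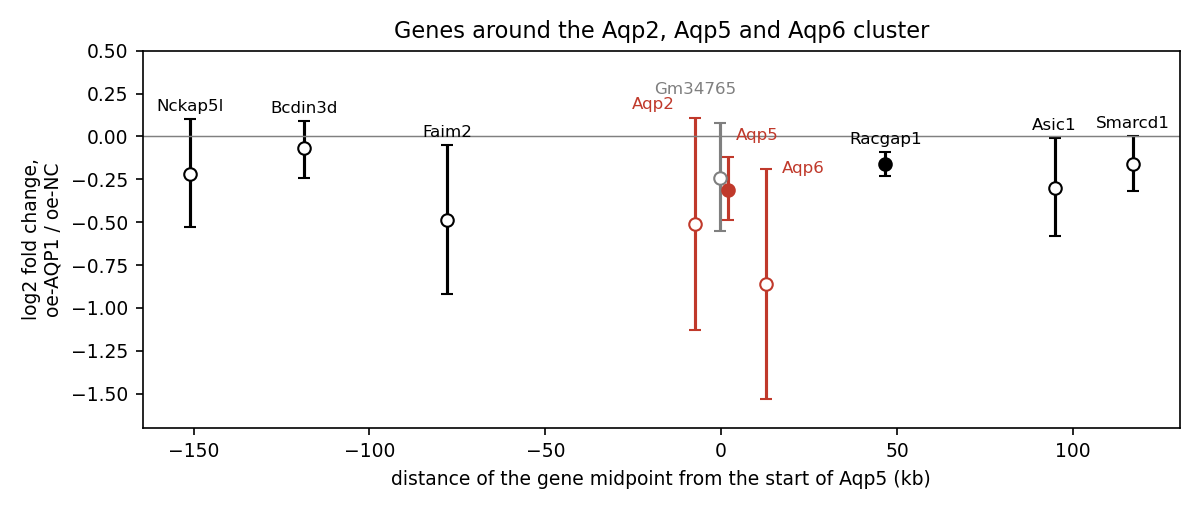
Log2 fold change of oe-AQP1 over oe-NC with its 95% confidence interval for genes around the Aqp2, Aqp5 and Aqp6 cluster, placed by the distance of the gene midpoint from the start of Aqp5 in kb. Filled points passed the adjusted p threshold of 0.05 (Aqp5 and Racgap1), aquaporins are red and the antisense RNA Gm34765 is grey. Every estimate lies below 0, and the intervals of Nckap5l, Bcdin3d, Aqp2 and Gm34765 cross 0.

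Aqp3 and Aqp7 form the other pair of neighbours, 44.5 kb apart on chromosome 4 (chr4:41092722-41098183 and chr4:41032835-41048211, both on the minus strand). The genes around them were well counted, with 1709 to 2185 counts of Nol6, a ribosome assembly gene, in oe-NC against 1862 to 2218 in oe-AQP1. Aqp8 lies at chr7:123061514-123067227 on the plus strand and Aqp11 at chr7:97373213-97387524 on the minus strand. Over the nearest genes of all 12 aquaporins, 37 of 54 were tested, 6 rose, 12 fell and the median log2 fold change was -0.10, beside 16.0% higher, 16.6% lower and a median of 0.00 over all genes tested.

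Genes that work with aquaporins were described in 5 lists: glycerol handling, production and removal of hydrogen peroxide, vasopressin and cyclic AMP, trafficking and anchoring, and other routes for water, urea and osmolytes. Of their 73 genes, 60 were tested, 7 rose and 30 fell, and the median log2 fold change was -0.15 against 0.00 over all genes tested. This is 61.7% past the adjusted p threshold, beside the 32.5% of all genes tested given above. Nox4, Mal and Myo5b also passed the fold threshold. Among the 60 genes tested, this is a share close to the 5.23% of all genes tested that passed both. Genes with many reads can pass at small changes, as Gnas did at -0.20 with 16201 to 19057 counts in oe-NC. The lists were not compared with genes of like counts. The lists were not tested as groups.

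Glycerol handling had 14 of 16 genes tested, of which 4 rose and 6 fell, with a median log2 fold change of -0.20. Beside this, 16.0% of all genes tested rose and 16.6% fell past the adjusted p threshold. Gk5, a glycerol kinase family gene, rose with 151 to 182 counts against 90 to 114, a log2 fold change of 0.64 (SE 0.13, limma-voom adjusted p = 0.0037). Plin2, a lipid droplet coat gene, rose by 0.35 (SE 0.03, limma-voom adjusted p = 2.01e-05), and the lipid droplet lipolysis genes Abhd5 and Pnpla2 rose by 0.21 and 0.15, the call of Abhd5 being lost without oe-AQP1 sample 1 or 2 (0.0582 and 0.0733) and that of Pnpla2 without any oe-AQP1 sample and without oe-NC sample 2 or 3 (0.11 to 0.136). Plin4, another droplet coat gene, fell by 0.58, and Gpd1l, a glycerol 3-phosphate dehydrogenase like gene, fell by 0.52 (limma-voom adjusted p = 1.77e-04 and 2.35e-05). Genes of glycerol and lipid droplet metabolism thus passed in both directions while Aqp9, the one glycerol channel with many reads, stood at 57.5 and 57.7 CPM.

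Hydrogen peroxide production and removal had 15 of 19 genes tested, of which 1 rose and 10 fell, with a median of -0.18. Beside this, 16.0% of all genes tested rose and 16.6% fell. Nox4, a hydrogen peroxide producing oxidase of kidney, rose with 22, 28 and 21 counts in oe-AQP1 samples 1 to 3 against 4, 3 and 11 in oe-NC samples 1 to 3. Its log2 fold change was 1.99 (SE 0.39, limma-voom adjusted p = 0.00323), the single gene of this list past the fold threshold. Nox4 was left untested by the stricter filter of 10 counts or more per sample, which oe-NC samples 1 and 2 did not reach. Sod2, the mitochondrial superoxide dismutase, fell by 0.38 (SE 0.04), and the peroxidase gene Prdx6 fell by 0.29 (SE 0.03), with limma-voom adjusted p = 6.06e-05 and 1.22e-04. Without oe-AQP1 sample 2, the number past the threshold in this list was 7 in place of 11.

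Vasopressin and cyclic AMP had 10 of 12 genes tested, of which none rose and 3 fell, with a median of -0.09. These 3 of 10 are a share near the 32.5% of all genes tested that passed. Avpr2, the vasopressin receptor of the collecting duct, had 3 to 7 counts in oe-NC against 2 to 3 in oe-AQP1 and was not tested, and Avpr1a had no counts. Prkaca, a catalytic subunit of protein kinase A, fell by 0.42 (SE 0.04), and Gnas, the stimulatory G protein, fell by 0.20 (SE 0.03), with limma-voom adjusted p = 5.00e-05 and 5.73e-04. Prkar1a, a regulatory subunit of protein kinase A, fell by 0.11, a call that was lost without any oe-AQP1 sample and without oe-NC sample 2 or 3 (0.073 to 0.142).

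Trafficking and anchoring had 14 of 15 genes tested, of which 2 rose and 6 fell, with a median of -0.08. Beside this, 16.0% of all genes tested rose and 16.6% fell. Mal, an apical membrane protein that binds Aqp2, had 469, 469 and 473 counts in oe-AQP1 samples 1 to 3 and 1094, 1020 and 1238 in oe-NC samples 1 to 3. It fell by 1.32 (SE 0.06, limma-voom adjusted p = 5.65e-08). Myo5b, a motor for recycling vesicles, had 62 to 74 against 142 to 151 counts and fell by 1.14 (SE 0.12, limma-voom adjusted p = 7.45e-05). These were the genes of the list past the fold threshold, and in both every oe-AQP1 sample lay below every oe-NC sample. Of all genes tested, 23.8% showed that separation. Vamp2, a vesicle fusion gene, rose by 0.57, and Rab5a, an early endosome GTPase gene, rose by 0.21 (limma-voom adjusted p = 2.82e-04 and 0.00583).

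Other routes for water, urea and osmolytes had 7 of 11 genes tested, of which none rose and 5 fell, with a median of -0.25. Beside this, 16.0% of all genes tested rose and 16.6% fell. Trpv4, a cation channel that opens on cell swelling, fell by 0.54 (SE 0.07), and Slc12a2, the sodium, potassium and chloride cotransporter, fell by 0.32 (SE 0.05), with limma-voom adjusted p = 1.74e-04 and 0.00102. The others that fell were Slc5a3, the inositol carrier, by 0.28, Slc6a6, the taurine carrier, by 0.25 and Lrrc8a, a volume-regulated anion channel subunit, by 0.24. The call of Lrrc8a was lost without any oe-AQP1 sample and without oe-NC sample 2 (limma-voom adjusted p 0.0973 to 0.122). The urea transporter Slc14a1 had no counts.

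**Figure D5:**
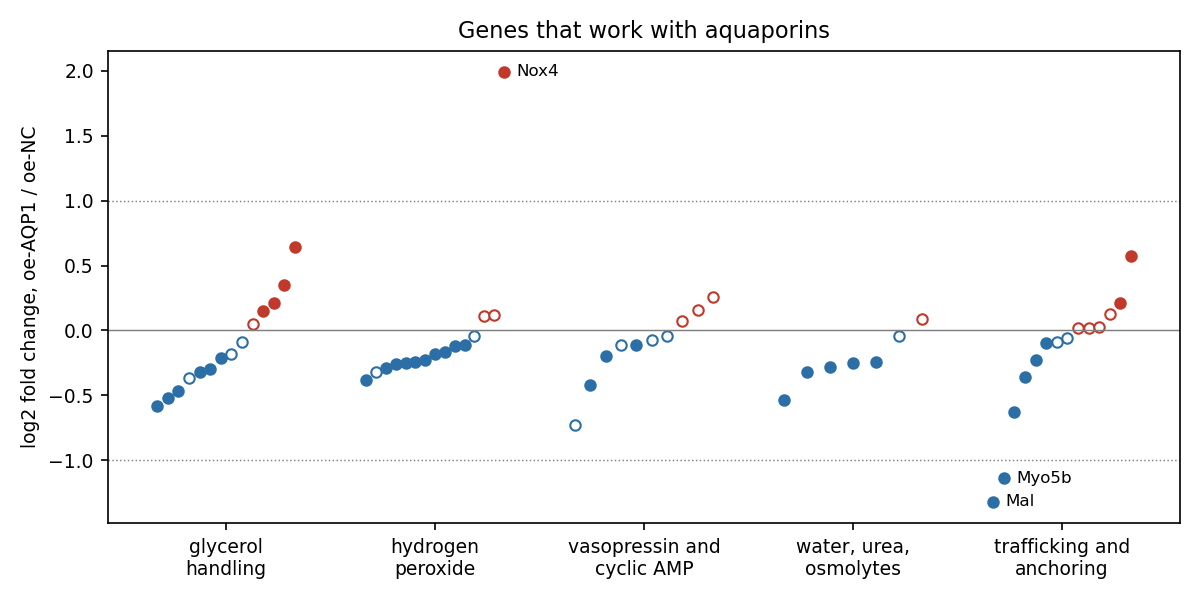
Log2 fold change of oe-AQP1 over oe-NC for each tested gene of the 5 lists of genes that work with aquaporins, sorted within each list. Filled points passed the adjusted p threshold of 0.05, red lies above 0 and blue below, and dotted lines mark the fold threshold. Nox4 at 1.99, Myo5b at -1.14 and Mal at -1.32 are the genes past it, and 30 of the 37 filled points lie below 0. Of all genes tested, 16.0% passed above 0 and 16.6% below, and 5.23% also passed the fold threshold.

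The labelled cell type was compared with its markers. The kidney lineage genes Pax8 and Pax2 and the keratins Krt8 and Krt18 had between 700 and 8279 counts in every sample, whereas the epithelial adhesion gene Epcam had none. Of the 8 kidney epithelial markers, 7 were tested, none rose and 4 fell, beside 16.6% of all genes tested that fell. Lrp2, the proximal tubule receptor megalin, had 574 to 623 counts in oe-NC against 300 to 353 in oe-AQP1, and fell by 0.93 on the log2 scale (limma-voom adjusted p = 1.56e-05). Krt8 fell by 0.41, Krt18 by 0.27 and the epithelial cadherin Cdh1 by 0.86, while Pax2, at 0.25, Pax8, at -0.07, and Cubn, at -0.32, did not pass the threshold. Without oe-NC sample 1, Pax2, at 0.41, and Cubn, at -0.38, passed it (limma-voom adjusted p = 3.99e-06 and 0.0115). Endothelium and red cells also carry Aqp1, so their markers were read. The endothelial markers summed to 2.12 to 2.92 CPM in oe-AQP1 and 1.86 to 2.44 CPM in oe-NC over 7 genes, with Kdr and Emcn at 0 in all samples. The red cell markers summed to 2.72 to 3.64 CPM and 5.09 to 5.96 CPM over 6 genes, with both beta globin genes at 0 in all samples. Macrophage markers summed to 36.2 to 38.9 and 38.5 to 41.7 CPM over 6 genes with Adgre1 at 0. Fibroblast markers summed to 56.6 to 58.8 and 51.6 to 65.7 CPM over 6 genes with Dcn at no more than 1 count. Csf1r, Cd68, Pdgfrb and Col1a1 of these lists were counted in every sample and are described at the end. The part of these marker levels in the aquaporin results was not tested.

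The genes whose level was most like that of each tested member over the 6 samples were found by Pearson's r of log2 CPM among 11760 protein-coding genes with a mean of at least 10 counts, as a description. For Aqp1 these were Oas2 (r = 0.99990), Ifit3b (0.99984), Trim25 (0.99973), Sp110 (0.99968) and Ifi35 (0.99961), all interferon-stimulated genes, and 339 genes had r above 0.99. The 6 points form 2 clusters, the groups, so that any gene with a clean step between the groups comes near 1. Ifit3b, for example, had 110 to 154 counts in oe-NC against 4760 to 5409 in oe-AQP1. For Aqp5 the nearest were Otud7b (0.99760), Ccn4 (0.99119) and Commd4 (0.98944). For Aqp9 they were Tram2 (0.98991), Ccdc12 (0.97601) and Zfyve9 (0.97547), and for Aqp2 they were Pgm2 (0.98575), Nipsnap1 (0.98474) and Tars3 (0.98436), all of which had a limma-voom adjusted p above the threshold.

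Among the libraries, oe-NC sample 1 stood apart from the other oe-NC samples. The chi-square per gene between replicates was 9.75 and 11.3 for its pairs and 1.74 to 2.06 for all other pairs within a group. Without it the log2 fold change was 7.78 for Aqp1, -0.27 for Aqp5 (limma-voom adjusted p = 0.0145), -0.51 for Aqp2 and 0.00 for Aqp9, and 40 of the genes in the 5 lists passed the adjusted p threshold in place of 37, while over all genes 6456 passed it in place of 5050.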

How the data were processed

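RNA of 6 samples, 3 per group, was sequenced paired-end from TruSeq libraries. The authors deposited 1 table of expected counts per gene, not scaled between samples, in which 10.2% of values were not whole numbers, though all aquaporin values were. The submitters' processing notes name fastp, HISAT2, featureCounts and Subread and the build GRCm38 (mm10), while the study's methods name GRCm39. Of the gene identifiers, 99.8% were found in GENCODE M39, and positions and lengths here come from that annotation of GRCm39. The authors' group means were not used.

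Counts were rounded, scaled by TMM and filtered with edgeR 4.0.16 (filterByExpr with group), which kept 15522 genes. They were tested with limma-voom (limma 3.58.1, R 4.3.3), adjusted by Benjamini-Hochberg over all genes kept, at 0.05 and, for the study's calls, an absolute log2 fold change above 1. DESeq2 1.42.0, edgeR's quasi-likelihood test, sample weights, other scalings and filters, unrounded counts, a replicate block and leaving out each sample were alternatives. The scripts were tested on simulated data. CPM is the rounded count per 1000000 counts of the sample's total over the genes kept, multiplied by its TMM factor. Coding sequences were aligned with Biopython 1.88.

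The members and lists were chosen with earlier results of these data known. Named were all aquaporins, in each list the genes past both thresholds and the 2 largest rises and falls past adjusted p 0.05, and the 5 (Aqp1) or 3 genes most like each tested member. Abhd5, Pnpla2, Prkar1a, Slc5a3, Slc6a6 and Lrrc8a, named to complete counts of 5 or fewer called genes, and the marker genes, neighbours and untested list genes were named after their values were seen. The aldose reductase gene of the osmolyte list was matched through an older symbol.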

Additional observations from a re-analysis of the deposited data

How the results depend on the processing

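Across the 16 alternatives Aqp1 stayed past the threshold, between 7.50 and 7.80 on the log2 scale with 1 sample left out. Aqp2 stayed below 0 and short of the threshold in all of them (-0.70 to -0.32 with 1 sample left out). Aqp5 stayed below 0 in all and past the threshold in 13, the other 3 being leave-one-out settings (-0.38 to -0.27), so the number of aquaporins other than Aqp1 past the threshold was 0 to 1 with 1 sample left out. Aqp6 passed it with sample quality weights (-0.86, limma-voom adjusted p = 0.0302) and ran from -1.03 to -0.52 with 1 sample left out. Aqp9 changed sign without approaching the threshold, at 0.01 with at least 10 counts in every sample, at 0.01 with no scaling beyond library size, and from -0.04 to 0.03 (including 0.00 and 0.02) with 1 sample left out. Over all genes, 812 passed both thresholds, and 482 did when at least 10 counts in every sample were required, a filter that removes genes low in 1 group. The number past the threshold over the 5 lists was 37 and ran from 27 to 40 with 1 sample left out, while the number over all genes was 5050 and ran from 3601 to 6456. Of 591 values of the 37 list genes under these settings, 49 lost the threshold and 0 changed sign. With canonical transcript lengths, an alternative chosen after seeing the data, the Aqp1 share was 81.6% in place of 90.1% in oe-AQP1 and 1.97% in place of 3.84% in oe-NC. With 1 sample left out the shares ran from 89.8% to 90.2% and from 3.46% to 4.40%.

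Samples with the same number did not deviate together (r of their deviations from the group means -0.000111, 0.0153 and -0.0527), so the numbers are taken as names only. With the number as a replicate block, the log2 fold changes were 7.67 for Aqp1, -0.31 for Aqp5, -0.52 for Aqp2, -0.81 for Aqp6 and -0.01 for Aqp9, 34 list genes and 786 genes in all passed, and no call of an aquaporin changed. Depth limits the low members: genes under the low-count filter were left untested, and the intervals of Aqp2 and Aqp6 span more than 1 on the log2 scale.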

Other observations

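Aqp12 had no counts, but 3 of the 5 tested genes nearest to it on chromosome 1 fell, beside 16.6% of all genes tested that fell and 0.844% that did so past the fold threshold. They were chosen after their values were seen. Gpr35, a G protein-coupled receptor gene 19.9 kb away, had 22 to 33 counts in oe-NC against 1 to 4 in oe-AQP1 (log2 fold change -3.48, limma-voom adjusted p = 3.99e-04). Kif1a, a kinesin gene 2.65 kb away, had 14 to 22 counts in oe-NC against 2 to 8 (-2.19, limma-voom adjusted p = 0.00429), and Mab21l4, 139 kb away, had 19 to 26 against 1 to 8 (-2.54, limma-voom adjusted p = 0.00478). The better counted neighbours Rnpepl1 and Capn10 had log2 fold changes of 0.16 and -0.19 and did not pass. Median log2 fold changes of the neighbours tested were -0.18 at Aqp9 and 0.28 at Mip.

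Single markers of other cell types passed the test in both directions. Csf1r, the receptor for macrophage colony-stimulating factor, had 173 to 202 counts in oe-NC against 56 to 76 in oe-AQP1 (log2 fold change -1.51, limma-voom adjusted p = 1.31e-05), while Cd68, the other tested macrophage marker, had 576 to 650 counts in oe-NC against 666 to 777 (0.15, limma-voom adjusted p = 0.0764). Ptprc, Adgre1 and Itgam had at most 3 counts, and Mrc1 had none in oe-NC against 2 to 5. Of the 3 fibroblast markers tested, Pdgfrb rose by 0.34 (limma-voom adjusted p = 0.00284), Col1a1 fell by 0.73 (limma-voom adjusted p = 0.00238) and Col1a2, at -0.11, did not pass. Slc4a1, the anion exchanger of red cells and intercalated cells, had 80 to 89 counts in oe-NC against 38 to 53 (-0.99, limma-voom adjusted p = 0.00108).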
